A study of Mus musculus with 6 samples.

Results

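Mature mouse miRNAs whose name carries a number of 1200 or more were described in the liver of ICR mice on a high-fat diet. Each was an entry named mmu-miR- with such a number and at least 1 read in any of 6 libraries, and the entries of miR-3073 and miR-3074 were left out. This rule kept 223 of the 1039 entries of the table, of which 762 had mouse names. The comparison set was the 532 mouse miRNAs numbered below 1200, with let-7 among them. The numbers follow the order in which miRNAs were named, so these 223 are late additions to the catalogue and are called late-numbered here.

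Small RNA was sequenced from liver, with 3 mice in the J group, 3 in the M group and 1 library per mouse. ICR is an outbred stock, and the mice were 30 weeks old and wild type by their labels. All 6 mice had received HFD (a high-fat diet) for 12 weeks before 8 weeks of gavage and stayed on it during the gavage. By gavage the J group received JTXK granule (a Chinese herbal compound) and the M group sterile water. Both groups therefore carry the diet, and no mouse on a standard diet was analysed here.

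A miRNA is cut from a hairpin, and either side of the hairpin can give a mature strand, named 5p or 3p after the arm it comes from. Bases 2 to 8 of the mature strand, the seed, pair with target transcripts, so miRNAs with the same seed can share targets. Hepatocytes make a few miRNAs in very large amounts, miR-122 above all, and many late catalogue entries rest on rare reads from deep sequencing. Some sit inside other noncoding RNAs, such as snoRNAs and scaRNAs, which guide the chemical modification of ribosomal and spliceosomal RNA. A short read from such an RNA, or from a repeat, can match the mature sequence of a miRNA.

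Mature sequences were available from RefSeq (GRCm38.p6) for 194 of the 223. The others, with miR-5099, miR-1948, miR-1839-3p and miR-1957b among them, are given by name, and no GC content, position or match to other genes is given for them. Those below are the listed sequences on which the results turn, written 5′ to 3′ with the seed in capitals. The first set holds abundant miRNAs that have a GC content of 65% or more, with miR-3963 beside them as an abundant one with 47.4%.
miR-6236: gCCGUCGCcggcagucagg
miR-6240: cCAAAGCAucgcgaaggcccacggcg
miR-6538: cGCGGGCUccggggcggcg
miR-5126: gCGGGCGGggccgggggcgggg
miR-2137: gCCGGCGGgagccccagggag
miR-3963: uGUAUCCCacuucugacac
Their GC content was 78.9% for miR-6236, 69.2% for miR-6240, 94.7% for miR-6538, 100% for miR-5126 and 85.7% for miR-2137. The median GC content was 52.4% over the 194 late-numbered miRNAs and 45.5% over 453 miRNAs of the comparison set. Of these seeds, that of miR-6240 (CAAAGCA) was also the seed of miR-330-3p, a miRNA of the comparison set.

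On the GRCm38 assembly, miR-6236 lay at chr9:110281353-110281371, miR-6240 at chr5:114851973-114851998 and miR-3963 at chr3:151023839-151023857, all 3 outside annotated genes. miR-6538 lay at chr12:26414970-26414988 in an intron of Rnf144a, which encodes a ubiquitin ligase. miR-2137 lay at chrX:72992113-72992133 in an intron of Zfp185, and miR-5126 at chr1:84695890-84695911 on the strand opposite to an exon of Dner, a ligand of Notch.

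The second set holds a pair of abundant miRNAs that share a run of bases near the 5′ end, and 2 near-identical sequences from scaRNAs.
miR-5100: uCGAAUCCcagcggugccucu
miR-3968: cGAAUCCCacuccagacacca
miR-1843b-5p: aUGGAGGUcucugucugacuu
miR-1843a-5p: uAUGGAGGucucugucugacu
The run CGAAUCC, read on the mature strand only, was found in miR-5100 and miR-3968 and in no other of 653 mature sequences listed for the table's mouse miRNAs, a share of 0.306%. It is the seed of miR-5100 and was picked from these sequences, so its share is a description only. The stretches that the table's names give, bases 5 to 20 of miR-5100 and 2 to 21 of miR-3968, each leave out part of it. The run falls 1 base apart in the pair, so their seeds differ. miR-5100 lay at chr11:60728698-60728718 in an intron of Mief2, a mitochondrial fission factor, and miR-3968 at chr11:115447969-115447989 on the strand opposite to an exon of Trim80. miR-1843b-5p and miR-1843a-5p share 20 bases in a row, shifted by 1 base, which also gives them different seeds. miR-1843b-5p lay at chr1:159340362-159340382 within the scaRNA gene Scarna3a, and miR-1843a-5p at chr12:80391654-80391674, where its sequence is held by Scarna3b. A read of this shared stretch cannot be assigned to one of them by its sequence.

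The third set holds sequences found in the transcripts of many genes, and its members share long runs with each other.
miR-3473e: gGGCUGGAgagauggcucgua
miR-3473b: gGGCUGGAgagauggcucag
miR-3473a: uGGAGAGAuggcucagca
miR-3473e and miR-3473b have the seed GGCUGGA in common and share 18 bases, and miR-3473a shares 16 bases with miR-3473b. The stretch that the table's name gives for miR-3473e is its first 15 bases, and that stretch was found in annotated transcripts of 533 other genes. For miR-3473b the number was 360 genes and for miR-3473a it was 289. miR-3473e itself lay at chr5:31667296-31667316 in an intron of Rbks, which encodes ribokinase.

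The last set holds both arms of a hairpin used in a mixed way, the 5p arm of the abundant hairpin miR-1839, and the rarest of the miRNAs past the thresholds below.
miR-1981-5p: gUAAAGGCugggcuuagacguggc
miR-1981-3p: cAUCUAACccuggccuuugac
miR-1839-5p: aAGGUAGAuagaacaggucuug
miR-6935-3p: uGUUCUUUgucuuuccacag
miR-1981 lay in an intron of Marc2, a mitochondrial reductase, with the 5p arm at chr1:184822465-184822488 and the 3p arm at chr1:184822409-184822429. miR-1839-5p lay at chr7:81529919-81529940 in an exon of a long noncoding RNA. miR-6935-3p lay at chr11:120347350-120347369 in Actg1, which encodes gamma-actin. Its sequence was found only in an Actg1 transcript annotated as keeping an intron, and the exon it lay in is counted from that annotation.

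Values are in RPM, the reads of a miRNA scaled to the same total of miRNA reads in each library. Depth was 2805177 to 4314134 miRNA reads in the J group and 2626353 to 4295665 in the M group, so that 1 read was worth 0.232 to 0.381 RPM and a limit of 3 reads stood at 0.695 to 1.14 RPM. The tissue label was checked on 4 hepatocyte miRNAs (both arms of miR-122, miR-192-5p and miR-194-5p), which summed to 329007 to 378100 RPM in J libraries and 333259 to 379781 RPM in M libraries. M group replicate 1 stood apart, and its label also carries a code number that differs from that of the other 5 libraries and is not explained there. Its 5 leukocyte miRNAs summed to 4228 RPM, against 595 to 866 RPM in J libraries and 796 and 1080 RPM in the other M libraries. Both arms of miR-142a gave nearly all of it, at 3709 and 444 RPM. miR-150-5p was also highest there (47.2 RPM, against 25.8 to 38.7 RPM elsewhere). By contrast, miR-223-3p (25.1 RPM there, 15.8 to 38.2 RPM elsewhere) and miR-155-5p (3.43 RPM there, 1.39 to 7.22 RPM elsewhere) were not raised. Its 3 neuron miRNAs summed to 293 RPM against 28.5 to 39.9 RPM elsewhere, of which miR-128-3p gave 290 RPM while miR-124-3p, the defining one, had 1 read there. The 3 muscle miRNAs summed to 22.5 RPM there against 2.50 to 5.10 RPM elsewhere. miR-1a-3p and miR-133a-3p were highest there, at 17.5 and 4.95 RPM, while miR-206-3p had no read there. Summed over 5 miRNAs of duct and gut epithelium, M replicate 1 held 4298 RPM against 950 to 2379 RPM in the other 5 libraries. miR-200a-3p, miR-200b-3p, miR-200c-3p (32.4 RPM) and miR-429-3p (77.7 RPM) were highest there. miR-141-3p, at 103 RPM, was within the range of the others. Pancreas miRNAs were at 1.14 RPM there and at 3.63 to 25.4 RPM elsewhere, and red blood cell miRNAs (3 of 4 in the table) ranged from 4362 to 6308 RPM in J libraries and from 2581 to 9886 RPM in M libraries. The part of these differences in the results below was not tested, and fewer cells of a type cannot be told apart from less miRNA per cell in whole liver.

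The late-numbered miRNAs made up 0.567% to 1.07% of each library, and 3 of them carried most of that share. Summed over all 223, they held 6222, 10136 and 10148 RPM in J group replicates 1 to 3, and 10684, 7161 and 5665 RPM in M group replicates 1 to 3. The groups overlapped, with the lowest sum of all in M replicate 3 and the highest in M replicate 1. The 2 deepest libraries, J replicate 1 and M replicate 3, had the 2 lowest sums, and the part of depth in the sums was not tested. The group means were 8835 ± 2263 RPM in J livers and 7837 ± 2577 RPM in M livers (SD, n = 3), and their difference of 998 RPM was smaller than either SD. Without M replicate 3 the difference was -87.4 RPM, and without the most abundant late-numbered miRNA it was -155 RPM. Without J replicate 1 or M replicate 1 the difference was larger than over all libraries. Without J replicate 2, J replicate 3 or M replicate 2 it was smaller, with the J group still higher.

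Together, miR-5099, miR-6236 and miR-3963 made up 63.4% to 75.4% of the late-numbered RPM in every library, and the 10 most abundant made up 86.1% to 90.4%. With these 3 set aside, the others summed to 2369 ± 317 RPM in J livers and 2352 ± 452 RPM in M livers (SD, n = 3), with SDs well below those of the full sums.

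**Figure D1:**
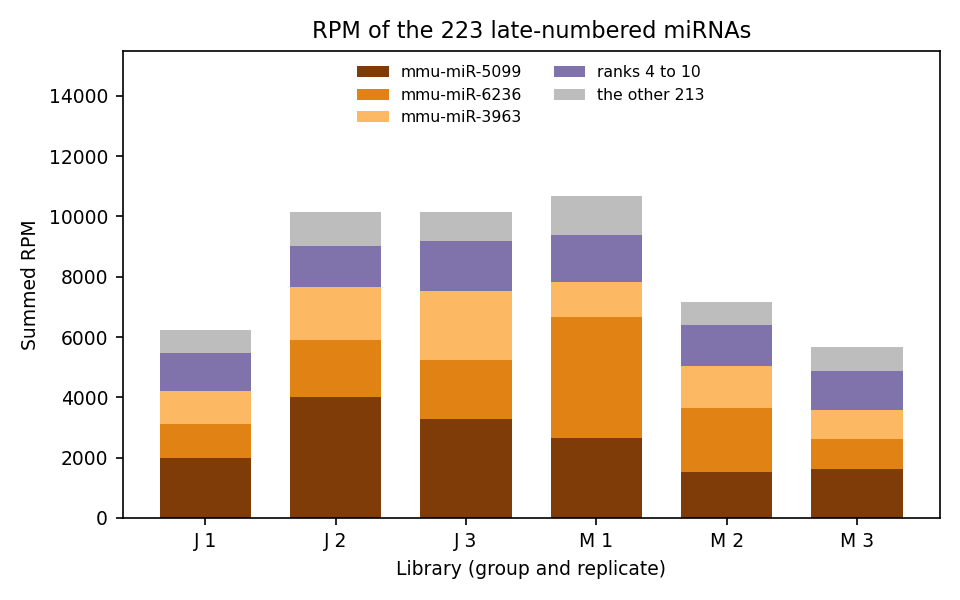
Summed RPM (vertical axis) of the 223 late-numbered miRNAs in each library, stacked by miR-5099, miR-6236, miR-3963, ranks 4 to 10 and all others. The bars run from 5665 RPM in M replicate 3 to 10684 RPM in M replicate 1, and the J and M bars overlap in height.

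Most late-numbered miRNAs were rare. Their median mean level was 0.294 RPM, close to the worth of a single read, against 7.12 RPM for the comparison set. By mean level, 3 exceeded 1000 RPM, 8 lay between 100 and 1000 RPM, 18 between 10 and 100 RPM, 39 between 1 and 10 RPM and 155 below 1 RPM. Of the 223, 75 had at most 3 reads over all 6 libraries together. A level of 10 RPM was reached by 13.0% of them and by 45.3% of the comparison set.

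Detection in all 6 libraries went with abundance. A read in every library was found for 76 of 223 late-numbered miRNAs (34.1%) and for 390 of 532 in the comparison set (73.3%). At a mean of 10 RPM or more the shares were 29 of 29 and 238 of 241, between 1 and 10 RPM they were 38 of 39 and 137 of 151, and below 1 RPM they were 9 of 155 and 15 of 140. Within each band of abundance the shares were thus closer than over all miRNAs, and 155 of the 223 late-numbered miRNAs were in the lowest band. Only 52 had 3 reads or more in every library and 37 had 10 or more. Each library detected 123 to 147 of them, and 49 were found in a single library, with at most 4 reads there. Such a single find is within the limit of 3 reads or near it, and says nothing of absence in the other 5 livers.

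**Figure D2:**
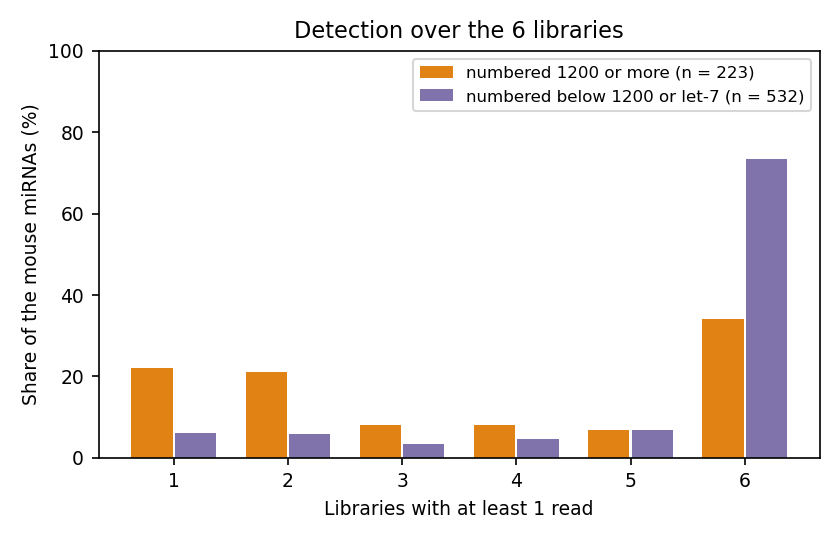
Share of miRNAs (vertical axis, percent) found in 1 to 6 of the 6 libraries (horizontal axis) for the 223 late-numbered miRNAs and the 532 of the comparison set. The late-numbered ones peak at both ends, with 49 found in 1 library and 76 in all 6, while 390 of the comparison set were found in all 6.

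The share of members at 10 RPM or more was highest among the lower numbers, while the most abundant single members were numbered in the 5000s and 6000s. Of 40 miRNAs numbered in the 1000s, 11 had a mean of 10 RPM or more, as had 9 of 55 in the 3000s, 3 of 20 in the 5000s, 4 of 56 in the 6000s and 1 of 44 in the 7000s, and the single one of the 2000s, miR-2137. Those in the 7000s summed to 32.6 RPM over 44 miRNAs, and their most abundant was miR-7219-3p at 12.7 RPM. None of 6 in the 8000s reached a mean of 1 RPM. The entries next to the limit of the rule were miR-1198 below it, with means of 39.0 RPM for 5p and 0.492 RPM for 3p, and miR-1247 above it, with 2.26 RPM for 3p and 0.887 RPM for 5p.

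The most abundant late-numbered miRNA was miR-5099. It stood at 1978, 4022 and 3270 RPM in J replicates 1 to 3 and at 2646, 1530 and 1635 RPM in M replicates 1 to 3. The 2 highest libraries were J libraries, yet J replicate 1 lay below M replicate 1, so the groups overlapped. The J group was higher by 0.66 on the log2 scale (SE 0.32), with an unadjusted p of 0.0795 and an adjusted p of 0.71 in the limma fit. It passed the study's thresholds under 7 of 15 alternatives, among them without J replicate 1 (0.95) and without M replicate 1 (0.91).

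miR-6236, the GC-rich sequence between genes on chromosome 9, stood at 1123, 1866 and 1969 RPM in J livers and at 4012, 2128 and 973 RPM in M livers. The M libraries held both the highest and the lowest value, a wide range within a group of the same treatment. The log2 difference of -0.34 (SE 0.50) turned to 0.16 without M replicate 1. miR-3963 was steadier, at 1112, 1758 and 2300 RPM in J livers and 1153, 1391 and 987 RPM in M livers, with a log2 difference of 0.50 (SE 0.29) and overlapping groups.

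Ranks 4 to 10 ranged from 130 to 300.3 RPM in mean level. In this band, miR-1839-5p, miR-1843b-5p, miR-3068-5p and miR-1948-3p came from hairpins with both arms in the table. The 5p arm of miR-1839 stood at 299, 241 and 244 RPM in J livers and 357, 276 and 303 RPM in M livers. miR-1843b-5p held 237, 232 and 205 RPM in J livers and 161, 191 and 217 RPM in M livers. Neither moved far over the 6 livers, unlike miR-6240, which ranged from 74.2 RPM to 538 RPM.

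miR-3968 ranged from 85.8 RPM to 179 RPM within the J group alone, while its 3 M libraries lay between 123 and 132 RPM, and its log2 difference was 0.03 (SE 0.30). The 3p arm of miR-1948 was at 120, 163 and 169 RPM in J livers and at 78.8, 94.4 and 156 RPM in M livers. None of the 10 most abundant passed the thresholds in the limma fit, where the lowest unadjusted p among them was 0.0553, for miR-5100. Over 15 alternatives, miR-3963 passed under 2 and miR-1948-3p under 1.

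**Figure D3:**
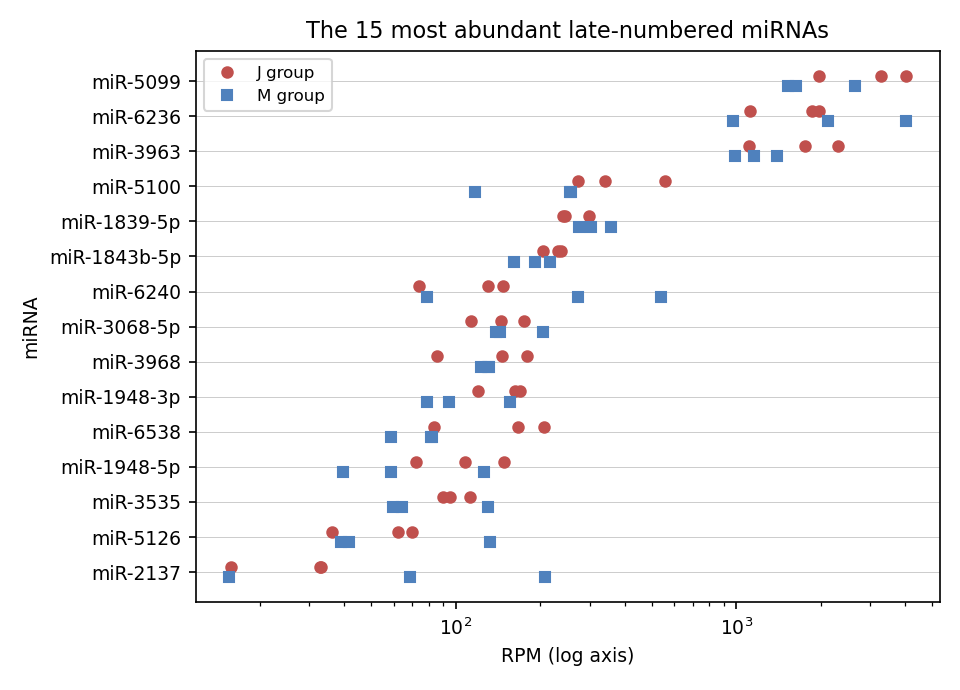
RPM (horizontal log axis) of the 15 most abundant late-numbered miRNAs in each of the 3 J libraries (circles) and the 3 M libraries (squares). The J and M points of miR-5100 and miR-6538 do not overlap, and the M points of miR-6240 and miR-2137 spread the most, from 78.9 to 538 RPM and from 15.6 to 207 RPM.

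Of the 223 names, 182 carry a range of bases after the miRNA and 41 carry none, and the number that closes this range equalled the length of the RefSeq mature sequence in 156 of 156 late-numbered miRNAs that had both. The range is read here as the stretch of the mature sequence that the table assigns, a reading taken from the values since no source used here explains it. The stretch was under 85% of the mature sequence in 40 of the 170 late-numbered names with a forward range (23.5%) and in 32 of 405 in the comparison set (7.90%). At a mean of 10 RPM or more it was 6 of 27 (22.2%) against 20 of 215 (9.30%), so the difference in share was also present among abundant miRNAs. A base change was written into 15 of 223 late names (6.73%) and 13 of 532 others (2.44%).

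Several of the leading late-numbered miRNAs thus rested on part of their sequence. The range ran from base 1 to base 16 of 19 in miR-6236, from 3 to 19 of 19 in miR-3963, from 5 to 20 of 21 in miR-5100 and from 7 to 26 of 26 in miR-6240. In miR-6538 it ran from 3 to 19 of 19. In miR-3963, miR-5100, miR-6240 and miR-6538 the range thus left out at least the first base of the seed. By contrast, the range of miR-3535, which lies within the nucleolin gene Ncl, covered all 26 bases, and it stood at 99.2 ± 11.8 RPM in J livers and 84.6 ± 39.2 RPM in M livers (SD, n = 3).

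The range was written backward, from a higher to a lower base, for 12 late-numbered miRNAs. The most abundant of these was miR-6935-3p, written from base 16 to base 2 of 20, and the other 11 had means below 1 RPM.

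Mature sequences were also searched, on the sense strand, in the annotated GENCODE transcripts of other genes. The miRNA genes were set aside, but a host gene at the same position counted as another gene. For miR-1839-5p and both arms of miR-3068, for example, the host was the only match. RNAs missing from that annotation could not give a match. The whole sequence occurred in at least 1 other gene for 60 of 194 late-numbered miRNAs (30.9%) and 105 of 453 in the comparison set (23.2%). The stretch named in the table did so for 75 (38.7%) and 110 (24.3%). The whole sequence or the named stretch occurred in a snoRNA or scaRNA for 12 late-numbered miRNAs and 2 of the comparison set. These matches and the positions that follow therefore overlap in part. Of the 194 with a position, 110 lay in an intron on the sense strand, 55 in an exon on the sense strand, 13 opposite to a gene and 16 outside genes. An exon of any annotated transcript counted, with snoRNA and scaRNA genes and transcripts that keep an intron among them. Positions were not counted for the comparison set. miR-3095-3p, named for bases 8 to 23 of 23, held a stretch of 16 bases found in transcripts of Alb, the gene of serum albumin and a major mRNA of hepatocytes. It stood at 3.01, 13.96 and 9.63 RPM in J livers and at 17.5, 5.86 and 3.03 RPM in M livers.

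To ask whether the JTXK granule went with a change in these miRNAs, J and M libraries were compared on the scale of log2(RPM + 1) with limma, which fits a linear model to each miRNA and steadies its variance with that of the others. The 1 RPM added brings the fold changes of rare miRNAs closer to 0. The fit covered the 548 miRNAs of the table with a mean above 1 RPM in at least one group, 75 of the 223 among them. The rest were left out by this filter, and 38 of the 75 tested also had fewer than 10 reads in some library. The thresholds were those of the study, a log2 fold change beyond 0.3 in either direction together with an unadjusted p under 0.05.

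Past these thresholds were 2 of the 75 late-numbered miRNAs (2.67%), miR-6538 and miR-6935-3p, both higher in the J group. Over all 548 miRNAs 5.29% passed, with 1.46% higher and 3.83% lower in the J group. The late-numbered share lay below the background over both directions and above it for the higher direction alone, and it rests on 2 miRNAs. None of the 75 had an adjusted p under 0.05 (Benjamini-Hochberg over 548, smallest adjusted p = 0.71), and 2 had an unadjusted p under 0.05. edgeR and DESeq2 on the recovered reads each put 6 late-numbered miRNAs past the thresholds (8.0%), all higher in the J group but 1 with DESeq2, against 8.21% of all miRNAs with edgeR and 6.57% with DESeq2, and again with none of the 75 at an adjusted p under 0.05. With median-of-ratios scaling it was 5 (6.67%, against 5.47% of all) and with quantile normalization 7 (9.33%, against 5.66%), so which of the shares was larger turned with the setting.

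The count also moved with single libraries. It was 4 without J replicate 1 (5.26%, against 5.77% of all miRNAs tested), 1 without J replicate 2 (1.32% against 3.86%) and 0 without J replicate 3 (against 6.83%). It was 5 without M replicate 1 (7.35% against 6.55%), 4 without M replicate 2 (5.13% against 8.36%) and 6 without M replicate 3 (7.59% against 6.69%). All these were higher in the J group, except for 3 of the 4 without M replicate 2 and 3 of the 6 without M replicate 3, which were lower.

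The median log2 difference was 0.03 over the 75, with 40 above 0 and 35 below and a range from -1.21 to 1.24. Over all 548 it was -0.13, and over the 414 tested miRNAs of the comparison set it was -0.16. The overall shift moved with the scaling, to -0.04 with median-of-ratios scaling and 0.08 with quantile normalization, where the late-numbered median stood at 0.13 and 0.20. The calls over all miRNAs turned with it, from 8 higher and 21 lower to 17 and 13, and to 20 and 11.

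**Figure D4:**
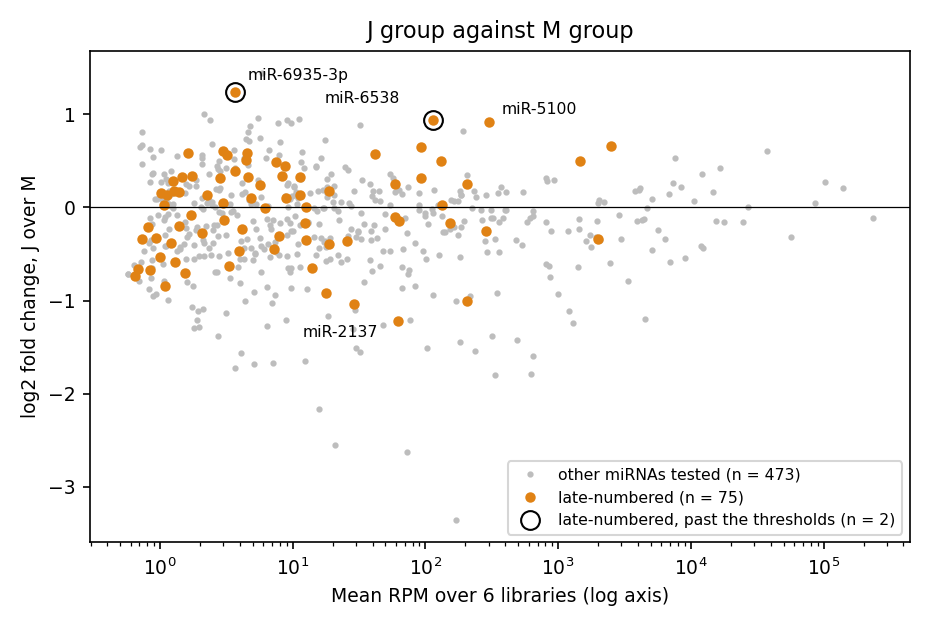
log2 fold change of the J group over the M group (vertical axis) against the mean RPM over 6 libraries (horizontal log axis) for the 75 late-numbered and 473 other miRNAs tested. The late-numbered points range from -1.21 to 1.24, and the 2 past the thresholds are circled.

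miR-6538 is a sequence of 19 bases in the Rnf144a intron. It stood at 83.7, 206 and 166 RPM in J replicates 1 to 3 and at 81.9, 82.4 and 58.7 RPM in M replicates 1 to 3. The groups did not overlap, but by little, since the lowest J library and the 2 highest M libraries lay within the counting error of one another. The 95% Wilson interval was 75.5 to 92.8 RPM in J replicate 1 and 73.3 to 92.6 RPM in M replicate 2. The means were 152 ± 62.4 RPM and 74.3 ± 13.5 RPM (SD, n = 3), and the log2 difference was 0.94 (SE 0.37) with an unadjusted p of 0.0368 and an adjusted p of 0.71 in the limma fit. It no longer passed without J replicate 2 (0.68), J replicate 3 (0.83), M replicate 2 (1.03) or M replicate 3 (0.78). With a replicate block it did not pass either. Over 15 alternatives it passed under 10, and its adjusted p ranged from 0.242 to 0.826.

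miR-6935-3p, the miRNA with the backward range in Actg1, rested on few reads. There were 15, 30 and 13 reads in the J group, or 3.48, 8.37 and 4.63 RPM, and 7, 1 and 12 reads in the M group, or 2.67, 0.293 and 2.79 RPM. All 3 J libraries lay above all 3 M libraries, and the Wilson interval of J replicate 1, 2.11 to 5.74 RPM, covered the values of M replicates 1 and 3. The means were 5.50 ± 2.56 RPM and 1.92 ± 1.41 RPM (SD, n = 3). The log2 difference was 1.24 (SE 0.52), with an unadjusted p of 0.0488 and an adjusted p of 0.71 in the limma fit. It no longer passed without J replicate 1, 2 or 3 (1.47, 0.94 and 1.31) or without M replicate 2 (0.73). Nor did it pass with edgeR (1.59), with 0.1 RPM added (1.84) or with a replicate block. Over 14 alternatives it passed under 7, and its adjusted p ranged from 0.562 to 0.826.

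The J libraries lay wholly above the M libraries for 5 of the 75 late-numbered miRNAs and wholly below for 2, against 4.2% and 9.31% of all 548. The 5 were miR-6538 and miR-6935-3p, and with them miR-5100, miR-1957b and miR-6978-3p. miR-5100 stood at 340, 273 and 559 RPM in J livers and at 117, 258 and 255 RPM in M livers. J replicate 3 was far above the others and M replicate 1 far below, while J replicate 2 and M replicates 2 and 3 lay close together. The log2 difference was 0.91 (SE 0.40), with an unadjusted p of 0.0553 in the limma fit, and 0.54 without M replicate 1. It passed the thresholds under 8 of 15 alternatives, edgeR and DESeq2 among them.

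miR-1957b is the late-numbered miRNA on the study's own list, which was chosen on these libraries. Its 9 to 26 reads per library gave 6.03, 4.47 and 6.42 RPM in J livers and 3.43, 3.52 and 3.26 RPM in M livers. The M libraries were nearly level and all J libraries higher, with a log2 difference of 0.58 (SE 0.29) and an unadjusted p of 0.0805 in the limma fit. miR-6978-3p, from an intron of the complement gene C3, had 7, 6 and 9 reads in the J group and 4, 2 and 5 reads in the M group, and its log2 difference was 0.59 (SE 0.37).

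The 2 that lay below were miR-1839-3p and miR-3102-3p. miR-1839-3p stood at 22.7, 24.0 and 20.3 RPM in J livers and at 36.6, 24.9 and 26.5 RPM in M livers, where M replicate 1 was the highest and M replicate 2 only just above the J libraries (log2 difference -0.36, SE 0.26). miR-3102-3p had 2 to 4 reads in 5 libraries and 15 in M replicate 2, so its value rests on that library.

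The 12 miRNAs with a sequence or stretch found in snoRNAs or scaRNAs included both arms of miR-1843b and miR-1843a, both arms of miR-3084 (Snora19) and of miR-6516, and miR-1291 (Snora34). For miR-7033-5p it was the stretch of 16 bases alone, and its own position is in an intron of Pom121. They summed to 360, 363 and 333 RPM in J livers and to 255, 298 and 334 RPM in M livers. The groups overlapped, with M replicate 3 level with J replicate 3, and the lowest sum was that of M replicate 1, the library that stood apart. Most of each sum was miR-1843b-5p, which gave 237, 232 and 205 RPM of it in J livers and 161, 191 and 217 RPM in M livers. Of the 12, 11 were tested, 9 had a log2 difference above 0 and 2 below, the median was 0.26, and none passed the thresholds, while over all 548 miRNAs 225 lay above 0 and the median was -0.13.

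Some late-numbered miRNAs were high in M replicate 1 alone. Of 56 with at least 10 reads in some other library, 21 had their highest RPM there, 2 by over 2-fold and 1 by over 4-fold above the next library. In the comparison set it was 107 of 357, with 14 by over 4-fold. The largest excess was that of miR-3473e, at 9.74, 8.93 and 8.56 RPM in J livers and 131, 9.38 and 5.35 RPM in M livers. The other 5 libraries lay between 5.35 and 9.74 RPM, and M replicate 1 was 13.5 times the next highest. Its log2 difference between groups, -1.03 (SE 1.04), became 0.31 without that library. Among rarer ones, miR-3091-3p had 11 reads there and 0 to 6 elsewhere, while miR-6715-5p was highest in M replicate 3, with 15 reads against 2 to 4.

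Most of the abundant GC-rich miRNAs were also high there. miR-2137 stood at 15.8, 32.9 and 32.8 RPM in J livers and at 207, 68.6 and 15.6 RPM in M livers. miR-6240 stood at 74.2, 147 and 130 RPM in J livers and at 538, 272 and 78.9 RPM in M livers. For both, M replicates 1 and 2 were the highest libraries and M replicate 3 was among the lowest. The log2 differences of -1.21 (SE 0.85) for miR-2137 and -1.0 (SE 0.67) for miR-6240 shrank to -0.34 and -0.38 without M replicate 1, and without M replicate 3 both passed the thresholds, at -2.17 and -1.76.

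The log2 ratio of M replicate 1 to the mean of the other 5 libraries, on RPM + 1, was read over the 21 miRNAs that had a sequence and a mean of 10 RPM or more in those 5. It was above 0 for 5 of 6 with a GC content of 65% or more, with a median of 1.44, and for 6 of 15 others, with a median of -0.34. The exception was miR-6538, at -0.54, although 94.7% of its bases are G or C. With a mean of 1 RPM or more in the other 5 as the limit, it was above 0 for 5 of 8 GC-rich and 21 of 47 other miRNAs, and the rarer GC-rich ones, miR-7033-5p (-1.10) and miR-1247-3p (-0.20), lay below 0. The part of leukocyte and other marker miRNAs of that library in these values was not tested.

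A name without an arm went with the bulk of the reads. The 66 late-numbered miRNAs named without an arm held 85.3% of the late-numbered RPM, the 66 named 5p held 10.5% and the 91 named 3p held 4.22%. Arm use could therefore be read for a minor share of the reads only. For 35 hairpins both arms were in the table, and 15 of these had at least 10 reads over both arms in every library.

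In most of these 15 the same arm led in all 6 livers, and which arm that was differed from hairpin to hairpin. The 5p arm of miR-1839 took 90.7% to 92.9% of the reads over 742 to 1415 reads per library, and that of miR-1843b took 94.8% to 97.7%. For miR-3068 the 5p share was 64.2% to 76.7% and for miR-1843a it was 72.7% to 82.0%. miR-1948 used its 3p arm more, with 33.4% to 47.7% of reads on the 5p arm. miR-3105, miR-7219 and miR-3084 also leaned to 3p, with pooled 5p shares of 3.65%, 1.48% and 17.3%, and miR-1943 leaned to 5p, with 99.0%.

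The exception was miR-1981, whose 5p share was 65.2%, 54.5% and 49.5% in J replicates 1 to 3 and 80.6%, 55.1% and 67.9% in M replicates 1 to 3. The J and M libraries overlapped, and only in J replicate 3 did the 3p arm lead, on 46 of 91 reads, where the 95% Wilson interval of the 5p share was 39.4% to 59.5%. The means were 56.4% ± 8.02 and 67.9% ± 12.8 (SD, n = 3), a difference of -11.5 percentage points with an exact permutation p of 0.2. miR-6516 differed by a like amount, at 57.5% ± 3.19 against 69.5% ± 9.29 (SD, n = 3), on 14 to 32 reads per library and with an exact two-sided permutation p of 0.1, which is the smallest that 3 libraries against 3 allow. Adjusted over the 15 hairpins, every exact p was 1, so no difference in arm use between the groups was detectable in this design.

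**Figure D5:**
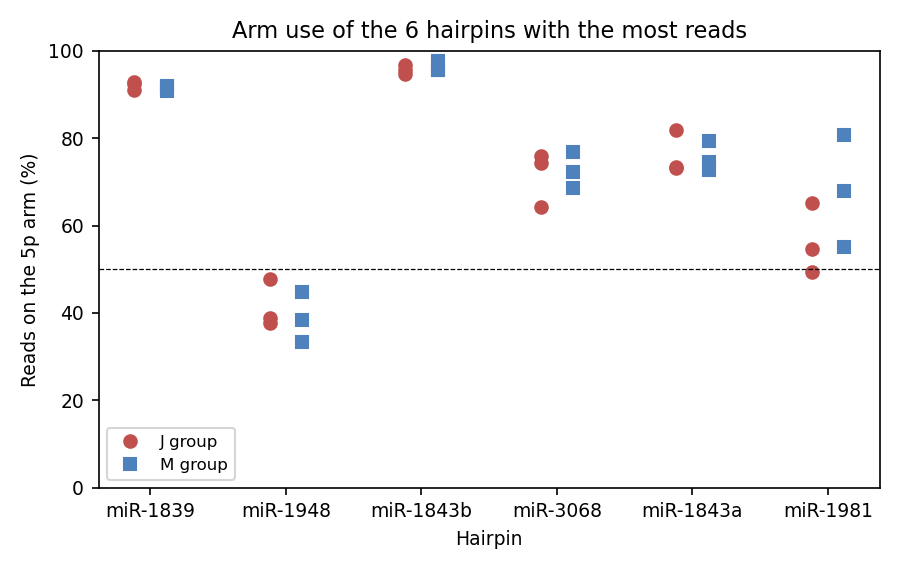
Share of reads on the 5p arm (vertical axis, percent) in each library for the 6 late-numbered hairpins with the most reads, J group as circles and M group as squares, with a dashed line at equal use. miR-1839 and miR-1843b lie above 90%, miR-1948 below the line, and miR-1981 spreads from 49.5% to 80.6%.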

How the data were processed

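Liver small RNA of 3 J group and 3 M group mice was sequenced by the authors, who filtered the reads, compared them with Rfam and miRBase and counted known and predicted miRNAs. The deposited values are RPM, the reads of a miRNA scaled to the same total of miRNA reads in each library, with each library kept apart. The submitters' processing notes name the build mm9, and the aligner is not given in the sources used here. All values above 0 were whole multiples of the RPM of 1 read within 0.01 (100% of values), so whole reads were recovered, 2626353 to 4314134 per library. Counting intervals (95%, Wilson) and the limit of 3 reads cover counting error only.

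Groups were compared on log2(RPM + 1) by limma 3.58.1 in R 4.3.3 (two-sided, with a variance trend in eBayes), over miRNAs with a mean above 1 RPM in a group. p-values were adjusted by Benjamini-Hochberg over all 548, and the fit was tested on simulated data. Arm shares were compared by exact two-sided permutation tests. Alternatives were an added 0.1 or 10 RPM, no filter, a filter at 10 RPM, median-of-ratios scaling, quantile normalization, the recovered reads tested with edgeR 4.0.16 or DESeq2 1.42.0, a replicate block, and each library left out. Sequences came from RefSeq (GRCm38.p6) and genes from GENCODE (GRCm38), and no coordinate of another build was used. Tables were handled in Python 3.11.15 with pandas 2.3.3 and scipy 1.17.1, and figures drawn with matplotlib 3.10.9.

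The members and lists were chosen with earlier results of these data known. Named are the 10 miRNAs with the highest mean RPM, those past the thresholds, the arms of the 6 hairpins with the most reads, the 5 tested with the smallest p whose groups do not overlap, the 5 with the largest excess in 1 library over the next, and miR-1957b. Others, such as miR-3095-3p, miR-3535, miR-5126 and the snoRNA and scaRNA members, were chosen after their values were seen. Marker lists were for hepatocytes, leukocytes, red blood cells, muscle, neurons, pancreas and epithelium of ducts and gut. The mice of a group are separate animals, and the replicate numbers do not pair them.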

Additional observations from a re-analysis of the deposited data

How the results depend on the processing

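The limma count of 2 late-numbered miRNAs past the thresholds was 1 with 0.1 RPM added (1.33% of those tested, against 4.74% of all miRNAs), 1 with a filter at a mean of 10 RPM (3.33% against 7.95%), 2 with 10 RPM added (2.67% against 4.38%), 4 with no filter (1.79% against 3.46%), 5 with median-of-ratios scaling, 7 with quantile normalization, 6 with edgeR, 6 with DESeq2, and 0 to 6 with a library left out. Over all miRNAs the count of 29 was 45 with edgeR and 21 (without J replicate 2) to 46 (without M replicate 2) with a library left out. None of the late-numbered adjusted p-values fell under 0.05 in any of these. The median log2 difference of the late-numbered miRNAs was 0.20 with quantile normalization. Requiring at least 10 reads in every library left 37 of the 76 detected in all 6. The cause of these changes was not tested, save that a stricter filter leaves fewer miRNAs to count.

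The replicate numbers were not known to pair the mice, and same-numbered J and M libraries deviated together with correlations of 0.045, 0.058 and -0.0059. With a replicate block the count was 1 late-numbered miRNA, neither miR-6538 nor miR-6935-3p, the 2 of the fit without it, and 27 over all miRNAs (1.33% against 4.93%).

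With a library left out, the log2 difference changed sign for miR-6236 (-0.86 to 0.16), miR-3068-5p (-0.32 to 0.0049), miR-3968 (-0.20 to 0.33), miR-3068-3p (-0.35 to 0.083) and miR-3473e (-1.88 to 0.31). With quantile normalization it turned to 0.00073 for miR-1839-5p, 0.078 for miR-3068-5p and 0.11 for miR-3068-3p, and with median-of-ratios scaling to 0.00085 for miR-3068-3p. None of these passed the thresholds in any of the fits named here. The difference in 5p share changed sign with a library left out for miR-1948 (-0.51 to 5.57 percentage points), miR-1843b (-1.11 to 0.064), miR-3068 (-3.32 to 2.61), miR-1843a (-2.11 to 2.66), miR-1943 (-0.74 to 0.83), miR-3105 (-4.11 to 0.39), miR-7219 (-0.44 to 1.67), miR-1258 (-6.78 to 1.94) and miR-3065 (-5.20 to 0.30). With pooled reads it turned to -0.088 for miR-7219 and 0.12 for miR-1258. The exact test could not give an adjusted p under 0.05 for any hairpin in this design, so it does not bear on the changes of sign in these 9. Depth limits the rare miRNAs most, since 155 of 223 had a mean under 1 RPM.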
